A study of Rattus norvegicus with 2 samples.

Results

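Genes of cell junctions were followed in rat (Rattus norvegicus) embryonic stem cells: the cadherins, the desmosomal cadherins and their plaque proteins, the claudins and other tight junction genes, Epcam, and the connexins of gap junctions. The 78 genes were taken from the deposited gene table by symbol, as every numbered cadherin (Cdh), claudin (Cldn), connexin (Gja, Gjb, Gjc and Gjd), desmocollin (Dsc), desmoglein (Dsg) and Tjp gene, together with Epcam, Ocln, Dsp, Jup and Pkp2. They filled 80 of 23716 rows, out of 23282 genes in all. The cells were of the Dark Agouti line DA-EC8/Rrrc, obtained through the Rat Resource Center, untreated, wild type, labelled as having a normal karyotype, at passage 30, and kept in 2i medium, which holds inhibitors of MEK and GSK3. The 2 libraries of total RNA form 1 group, named biological replicates by the series design, and nothing in the labels says that they came from separate cultures, so the spread between them may be technical. With 1 group and no contrast between conditions, no test was made, and a difference between genes is set against the spread between the replicates. In bulk RNA, fewer cells with a transcript and less transcript per cell cannot be told apart.

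Junctions join neighbouring cells. In adherens junctions a classical cadherin binds the same cadherin on the next cell and holds the actin skeleton through catenins, and in desmosomes desmogleins and desmocollins hold keratin filaments through plakoglobin, plakophilins and desmoplakin. Claudins and occludin seal tight junctions on a scaffold of ZO proteins, and connexins form the channels of gap junctions. In mouse embryonic stem cells E-cadherin is the main classical cadherin and keeps colonies compact.

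Values are RPKM, the reads on each kilobase of a gene model for every 1000000 reads, so levels of different genes are compared per length. A mean of at least 1 RPKM over both replicates counted as detected. Read totals recovered from steps in the values were 2991184 and 3050685 for replicates 1 and 2, at which 3 reads in a model of 2 kb correspond to 0.501 and 0.492 RPKM. All 7 measured pluripotency markers were detected, with Pou5f1 at 591 and 577 RPKM. None of 4 measured keratinocyte and none of 5 blood cell markers was detected, where 46.4% of all genes were. Of fibroblast and feeder cell markers 3 of 9 were detected, and of trophectoderm markers 4 of 7. Among primitive endoderm markers 1 of 6 was, among neural markers 3 of 5 and among endothelial markers 2 of 6. The highest means in these lists were, in the same order, 4.70, 61.2, 1.21, 32.3 and 61.6 RPKM.

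Of the 78 junction genes 28 (35.9%) averaged 1 RPKM or more, against a background of 46.4% of all genes. At a mean of 10 RPKM or more there were 15 (19.2%), against 29.4% of all genes. Another 25 (32.1%) were listed at 0 in both replicates, against 38.2% of all genes, and 25 lay above 0 and under 1 RPKM. The median over the 78 genes was 0.208 RPKM, and 0.539 RPKM over all genes. Detected members were spread unevenly over the junction types. All 5 genes of the group with Epcam, occludin and the ZO proteins were detected, as were 5 of 9 desmosomal genes, 8 of 23 cadherins, 6 of 22 claudins and 4 of 19 connexins. A listed 0 can be a failed estimate in this table, where genes that every cell uses are also listed at 0, so it does not show that a gene was silent.

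**Figure D1:**
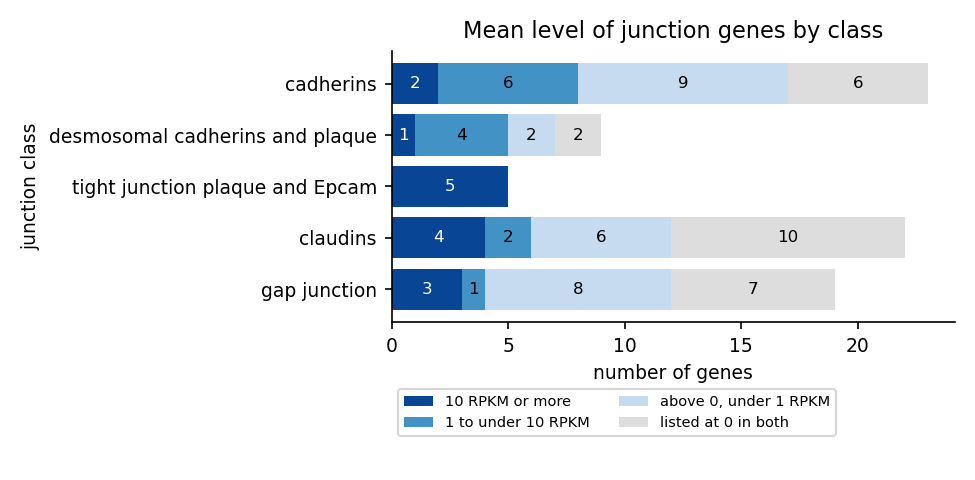
Number of junction genes (x axis) in each class (y axis) by mean RPKM over 2 replicates, with colours for 4 ranges of level. Among the claudins 10 of 22 were listed at 0, and among the group with Epcam all 5 genes were at 10 RPKM or more.

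Among the cadherins, Cdh1, which encodes E-cadherin (Entrez gene 83502, chromosome 19, 49635965 to 49705893 on the rn5 build), stood far above the rest. It was at 157 and 170 RPKM in replicates 1 and 2, a mean of 163 ± 9.49 RPKM (SD, n = 2) and the 458th highest gene of the table. It held 83.9% ± 1.64 of the summed cadherin RPKM. Cdh2, the N-cadherin that replaces E-cadherin in many mesenchymal and neural cells, was at 1.38 and 0.899 RPKM, so only the mean and replicate 1 reached 1 RPKM. On the log2(RPKM + 1) scale Cdh1 lay above Cdh2 by 6.05 in replicate 1 and 6.49 in replicate 2, a difference of 6.27 ± 0.31 (SD, n = 2). That is larger than the spread between the replicates. Other type I cadherins were under 1 RPKM: Cdh3, the P-cadherin, at 0.844 and 0.931 RPKM, and Cdh4, the R-cadherin, at 0.407 and 0.266 RPKM. Cdh15, the M-cadherin of muscle, was listed at 0. The count of 8 detected cadherins depended on the minimum, with 13 at 0.3 RPKM or more and 5 at 3 RPKM or more.

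Type II cadherins, known mainly from the nervous system and other differentiated tissues, were detected at low levels in 6 of 13 members. That is 46.2%, near the 46.4% of all genes that were detected. Cdh24 was highest at 12.5 and 11.2 RPKM. Next came Cdh18 at 5.10 and 4.28 RPKM and Cdh6, the K-cadherin, at 3.86 and 2.92 RPKM. The order of these 3 genes held in both replicates, with no overlap between neighbours. Cdh9 was at 3.09 and 2.94 RPKM, Cdh8 at 1.95 and 3.10 RPKM, and Cdh10 at 2.36 and 1.54 RPKM. The levels of Cdh6, Cdh8 and Cdh9 overlapped, so their order was not resolved. Cdh10 overlapped Cdh8, so the order of that pair was not resolved either. The 5 type II genes below Cdh24 span 86.2 to 393 kb each, and none of their values came out as a whole number of reads at any gene model length from 60 to 20000 bp. Such values may hold shares of reads, and how reads were shared between genes is not given in the sources used here. Cdh7, Cdh11 (the OB-cadherin of mesenchyme) and Cdh22 lay between 0.0952 and 0.350 RPKM on average. Cdh5, the VE-cadherin of endothelium, was listed at 0, as were Cdh12, Cdh19 and Cdh20.

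No cadherin outside these types was detected. Cdh13, the T-cadherin, which lacks a cytoplasmic tail, had the highest mean of them at 0.474 RPKM, from 0.122 and 0.825 RPKM summed over its 2 rows. In replicate 2, 1 of these rows gave 0.465 RPKM, a value that 1 read would give in a gene model of 705 bp. Cdh23, a cadherin of hair cell tip links, was at 0.447 and 0.157 RPKM, so the order of Cdh13 and Cdh23 was not resolved. Cdh16, of kidney, was at 0.117 and 0.114 RPKM, and Cdh17, of intestine, at 0 and 0.0961 RPKM. Cdh26 was listed at 0.

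Of 14 partners of the classical cadherins 12 were detected and 9 reached 10 RPKM, where 46.4% and 29.4% of all genes did. The median over all 14, with those listed at 0 included, was 18.5 RPKM, beside 0.539 RPKM over all genes. Ctnnb1, which encodes beta-catenin, the link from cadherin to alpha-catenin and also the effector of Wnt signalling, was highest at 440 and 443 RPKM. Ctnna1, the alpha-catenin that binds actin, was at 135 and 139 RPKM, and Ctnnd1, the p120-catenin that holds cadherins at the membrane, at 99.3 and 109.9 RPKM. Their means were 442 ± 1.66, 137 ± 2.49 and 105 ± 7.53 RPKM (SD, n = 2). Cdh1 thus lay between beta-catenin and alpha-catenin in both replicates. The nectin gene Pvrl4 was lowest of the detected partners at 0.793 and 1.64 RPKM. The alpha-catenin genes of neurons and of heart and testis, Ctnna2 and Ctnna3, were listed at 0.

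Repressors that bind the E-cadherin promoter in epithelial-mesenchymal transition were under 2 RPKM or listed at 0, apart from Tcf3. Snai1 was at 1.99 and 1.44 RPKM, Zeb1 at 1.53 and 1.07 RPKM and Zeb2 at 1.37 and 0.629 RPKM. Twist1 was at 0.223 and 0.656 RPKM, and Snai2 and Twist2 were listed at 0. Only Tcf3, a broadly expressed E-protein gene, stood high in this list of 7, at 149 and 136 RPKM. Of 7 regulators of epithelial genes 6 were detected, against 46.4% of all genes. Esrp1, a splicing factor of epithelial isoforms, was at 60.9 and 53.0 RPKM, and Esrp2 at 11.05 and 9.13 RPKM. The grainyhead factor gene Grhl2 was at 17.99 and 18.7 RPKM, above Grhl1 at 5.38 and 3.25 RPKM and Grhl3 at 4.31 and 4.63 RPKM. Ovol2 was at 7.87 and 6.12 RPKM and Ovol1 at 0.335 and 0.383 RPKM.

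**Figure D2:**
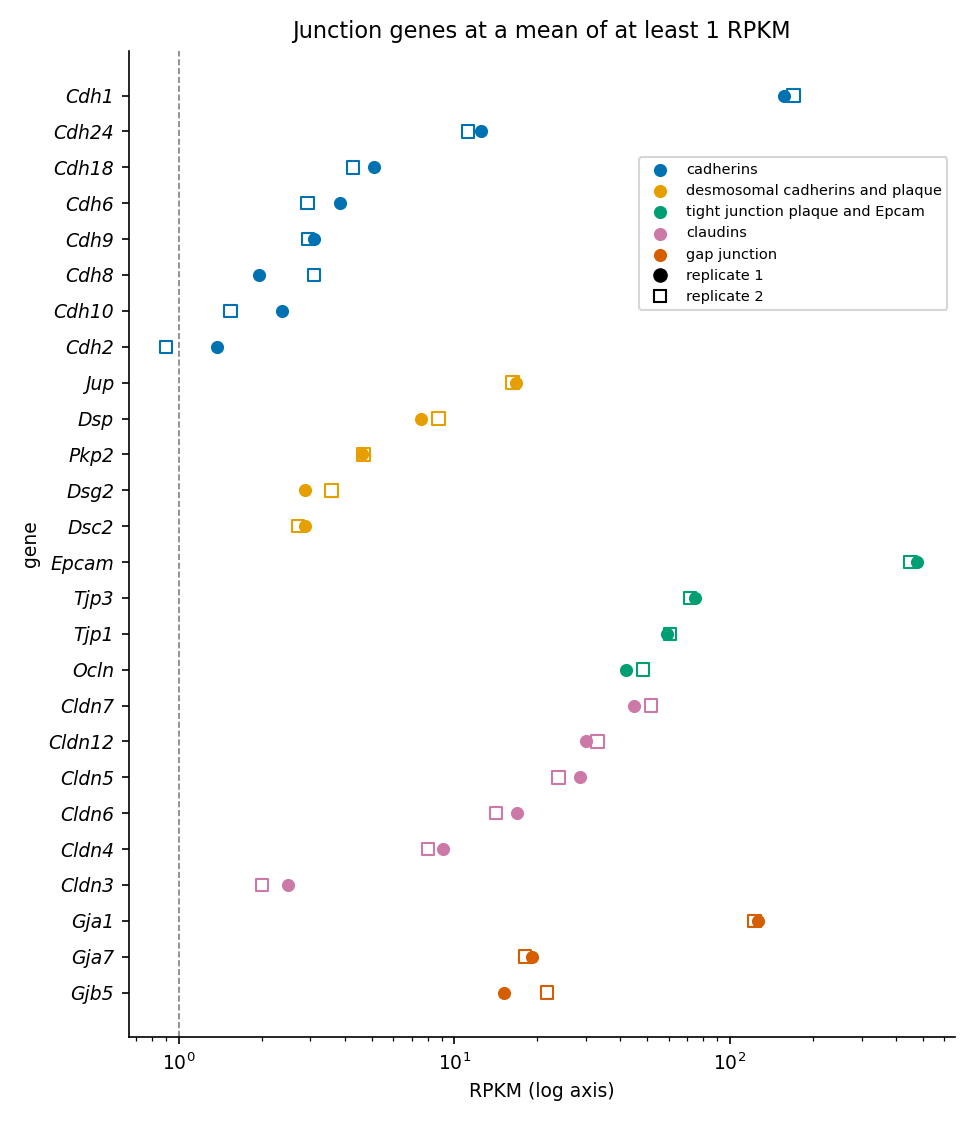
RPKM on a log axis (x) of 26 detected junction genes (y), grouped by class, with a filled circle for replicate 1 and an open square for replicate 2. Epcam, Cdh1 and Gja1 are the 3 genes above 100 RPKM, and Cdh2 is the gene with a replicate left of the dashed line at 1 RPKM.

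Among the desmosomal members 5 of 9 were detected, at lower levels than Cdh1. Jup, which encodes plakoglobin, a relative of beta-catenin found in desmosomes and adherens junctions, was highest at 16.7 and 16.2 RPKM. Dsp, the desmoplakin that ties the plaque to keratin, was at 7.59 and 8.73 RPKM, and Pkp2, the plakophilin of simple epithelium and heart, at 4.61 and 4.68 RPKM. Both members of the desmosomal cadherin pair of simple epithelia were detected, Dsg2 at 2.86 and 3.58 RPKM and Dsc2 at 2.86 and 2.70 RPKM. Dsg2 and Dsc2 did not differ beyond their spread. Dsc3, of stratified epithelia, was at 0.510 and 0.935 RPKM and Dsc1 at 0.0455 and 0 RPKM. Values of Dsc1, Dsc2 and Dsc3 did not come out as whole reads at any model length sought, so they too may hold shares of reads. Dsg3 and Dsg4, of epidermis and hair, were listed at 0. Among 6 other desmosome genes 3 were detected, against 46.4% of all genes. Pkp4 was at 41.0 and 42.6 RPKM, Perp at 18.03 and 17.3 RPKM and Pkp3 at 3.75 and 2.34 RPKM, and Pkp1 was listed at 0. Pkp4 also belongs to adherens junctions.

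Epcam, a homophilic adhesion protein of epithelia and embryonic stem cells that also stabilises claudins, had the highest level of all 78 genes (Entrez gene 171577, chromosome 6, 21264116 to 21280078). It was at 478 and 452 RPKM, a mean of 465 ± 18.2 RPKM (SD, n = 2), the 69th highest gene of the table. The ZO scaffold genes Tjp3 (ZO-3) and Tjp1 (ZO-1) were at 74.3 and 71.7 RPKM and at 58.9 and 60.5 RPKM, with no overlap between them. Values of Tjp3 and Tjp1 did not come out as whole reads at any model length sought, so they too may hold shares of reads. Ocln, the gene of occludin, a membrane protein of tight junctions, was lower than both at 41.9 and 48.3 RPKM. Tjp3 shares the last bases of its locus with Apba3 on the other strand, and whether reads were counted by strand is not given in the sources used here.

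Other genes of tight junctions and of apical polarity were detected in 16 of 17 measured members, 11 of them at 10 RPKM or more, with a median of 17.9 RPKM. Of all genes 46.4% were detected and 29.4% reached 10 RPKM. Sympk, a scaffold that is shared with RNA 3′ end processing, was highest at 97.3 and 104 RPKM. The junctional adhesion molecule gene Jam3 was at 53.1 and 49.1 RPKM, and Prkci, the atypical protein kinase C of the polarity complex, at 48.4 and 49.4 RPKM. The lowest was Cgnl1, which encodes paracingulin, at 0.669 and 0.555 RPKM. Inadl was not analysed here.

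Claudins, which set what a tight junction lets through, were led by Cldn7 (chromosome 10, 56321561 to 56323748) at 44.8 and 51.7 RPKM, a mean of 48.2 ± 4.87 RPKM (SD, n = 2). It held 35.9% ± 3.50 of the summed claudin RPKM, a smaller part than Cdh1 held among cadherins. Cldn12, a claudin without the usual PDZ-binding end, followed at 30.0 and 33.1 RPKM, and the log2(RPKM + 1) difference of Cldn7 over Cldn12 was 0.60 ± 0.05. Cldn5, a claudin best known from endothelium, was at 28.6 and 23.9 RPKM. These values come from 122 and 104 reads in a gene model as long as its locus of 1427 bp. Other endothelial genes were uneven. Pecam1, which mouse embryonic stem cells also express, was at 63.9 and 59.4 RPKM, Egfl7 at 2.26 and 1.77 RPKM, Tie1 at 0.788 and 1.12 RPKM and Tek at 0.220 and 0.0719 RPKM, and Kdr and Emcn, like Cdh5, were listed at 0. The 6 markers summed to 67.2 and 62.3 RPKM, and their part in the level of Cldn5 was not tested.

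Cldn6, a claudin of embryonic epithelia and pluripotent cells, was at 16.9 and 14.2 RPKM. Cldn4 was at 9.11 and 8.02 RPKM from 49 and 44 reads, and Cldn3 at 2.50 and 2.00 RPKM from 11 and 9 reads. Both are widespread claudins of simple epithelia and bind the same bacterial toxin. The order Cldn7, Cldn12, Cldn5, Cldn6, Cldn4, Cldn3 held in each replicate with no overlap between neighbours. Values of Cldn6 and Cldn7 did not come out as whole reads at any length up to that of their loci.

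Of the 16 other claudins 10 were listed at 0 in both replicates: Cldn8, Cldn9, Cldn10, Cldn11, Cldn14, Cldn16, Cldn17, Cldn18, Cldn19 and Cldn24. Among them are the claudins of myelin (Cldn11), of kidney tubules (Cldn10, Cldn14, Cldn16 and Cldn19) and of stomach and lung (Cldn18). Cldn1, the claudin that seals the epidermis, was at 0.104 and 0 RPKM, and Cldn2, which forms cation pores, at 0 and 0.108 RPKM. Cldn22 was at 0 and 0.325 RPKM and Cldn23 at 0.194 and 0 RPKM, in each case 1 read. Cldn15, of intestine, was at 0 and 1.44 RPKM. In a locus of 7121 bp this is a value that 1 read would give in a gene model of 228 bp. Cldn20 was at 1.90 RPKM in replicate 1, against 0.0199 RPKM in replicate 2. Its locus of 660 bp lies within that of Tfb1m on the other strand, and the values correspond to 3.75 and 0.04 reads there, which are not whole. Neither gene can therefore be called detected or absent from these values.

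Among the connexins Gja1, which encodes Cx43 (chromosome 20, 39612108 to 39624555), stood highest at 126 and 123 RPKM, a mean of 125 ± 2.63 RPKM (SD, n = 2). Gja1 held 74.8% ± 2.02 of the summed connexin RPKM. Gja7, which RefSeq now calls Gjc1 and which encodes Cx45, was at 19.2 and 18.01 RPKM summed over 2 rows. The row with the shorter locus, of 329 bp, added 2.03 and 1.99 RPKM to that sum, from 2 reads in each replicate. Gja1 lay above the summed Gja7 by 2.68 ± 0.03 on the log2(RPKM + 1) scale. Gjb5, a beta connexin of epidermis and, in mouse, of trophoblast, was at 15.2 and 21.7 RPKM, from 37 and 54 reads. Gja7 and Gjb5 did not differ beyond their spread. Trophectoderm markers beside this connexin were uneven, with Krt18 at 61.3 and 61.1 RPKM, Eomes at 21.6 and 22.3 RPKM, Krt8 at 3.61 and 2.95 RPKM, Cdx2 at 2.45 and 1.76 RPKM, Elf5 at 0.494 and 0.161 RPKM, Krt7 at 0.162 and 0 RPKM and Gata3 listed at 0. The list summed to 89.6 and 88.3 RPKM, and its part in the level of Gjb5 was not tested.

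Another 15 connexins were under 1 RPKM or listed at 0. Means above 0 ran from 0.0690 RPKM for Gjb2, the connexin of cochlea and skin, to 0.437 RPKM for Gjd2, the connexin of neuronal electrical synapses. Gjd2 rested on 2 reads in replicate 1 and 3 in replicate 2, and Gja4, an endothelial connexin, on 1 read in each. Gja3, Gja5, Gja10 and Gjc3 were also in this range. Gja6, Gjb1 (the liver and Schwann cell connexin), Gjb6, Gjd3 and Gjd4 were listed at 0. Of the 3 pannexins, which form related channels, Panx1 was at 6.22 and 6.10 RPKM, Panx2 at 1.26 and 0.787 RPKM, and Panx3 was listed at 0.

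Cadherins outside the numbered family were mixed. Of 18 such genes 7 were detected and 4 reached 10 RPKM, against 46.4% and 29.4% of all genes. The calsyntenin gene Clstn1 was highest at 56.5 RPKM in each replicate, followed by Celsr1, a planar polarity cadherin, at 25.5 and 29.5 RPKM and Fat1 at 20.9 and 24.9 RPKM. Fat4 and Pcdh10 were listed at 0.

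Some junction genes lie side by side in the genome. Loci of members within 100 kb of each other on the deposited rn5 coordinates gave 12 pairs of neighbours, over 20 genes. In none of the 12 pairs were both genes detected, in 8 pairs 1 gene was, and in 4 neither was. Of 19716 pairs of adjacent rows of the whole table within 100 kb, both genes were detected in 30.8%, 1 in 34.0% and neither in 35.1%. With 12 pairs that share genes, and a smaller share of members than of all genes detected, nothing particular to junction genes is read from the count, and a listed 0 in a pair does not show a silent gene. Cdh1 and Cdh3 lie 48.4 kb apart on the same strand of chromosome 19, at 163 and 0.887 RPKM on average, a log2(RPKM + 1) difference of 6.44 ± 0.04 (SD, n = 2). Cldn6 and Cldn9 end 151 bp apart on opposite strands of chromosome 10, where Cldn6 averaged 15.5 RPKM and Cldn9 was listed at 0. If its gene model were as long as its locus, 3 reads of Cldn9 would give 0.700 RPKM in replicate 1. On chromosome 18 Dsc2 lies between Dsc3 and Dsc1, and its mean of 2.78 RPKM stood against 0.723 and 0.0227 RPKM for these. Dsg2 lies 14.4 kb from Dsg3, at 3.22 RPKM against a listed 0. The connexin genes Gja3, Gjb2 and Gjb6 on chromosome 15, Cldn17 with Cldn8 on chromosome 11, and Cldn22 with Cldn24 on chromosome 16 held no detected gene.

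**Figure D3:**
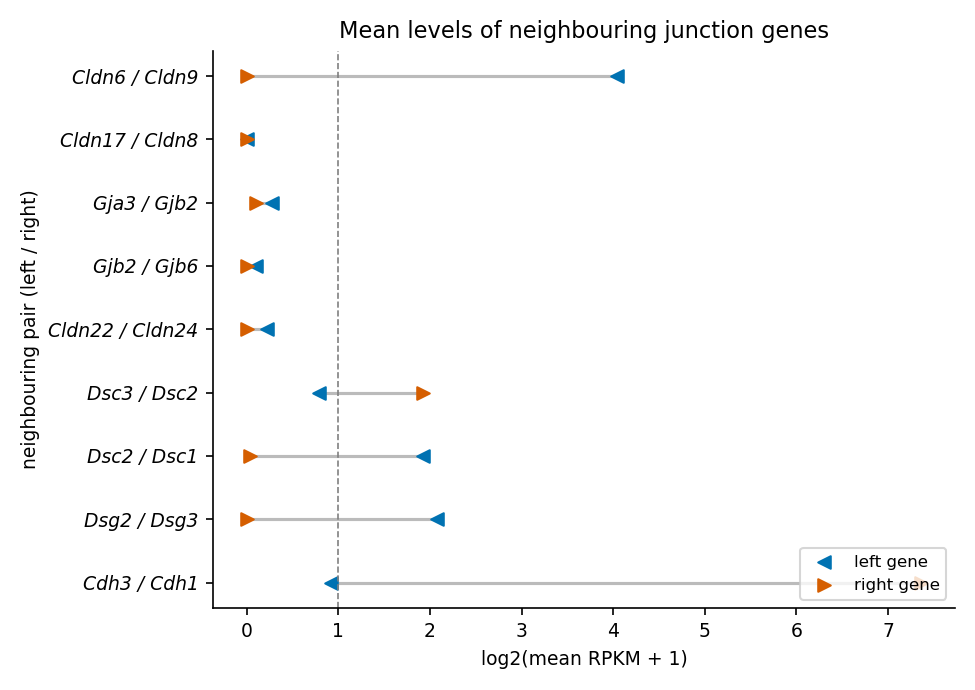
Mean level over 2 replicates as log2(RPKM + 1) (x axis) of the left and the right gene in 9 pairs of neighbouring junction genes (y axis). The dashed line marks 1 RPKM, and in no pair do both genes lie right of it.

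RefSeq promoter sequences of the GRCr8 build, from 250 bases before to 50 after the annotated gene start, were matched by gene identifier for 54 of the 78 genes. The E-box CACCTG, read on both strands and so also as CAGGTG, is the motif that Snail and Zeb repressors bind in the E-cadherin promoter of mouse and human. The Cdh1 promoter was not analysed here. This E-box occurred in 10 of 19 promoters of detected junction genes (52.6%), in 4 of 16 of those above 0 and under 1 RPKM, and in 3 of 19 of those listed at 0. Among all genes of the table with a promoter, 17.5% of 8832 detected genes and 19.7% of 4939 genes listed at 0 had it, and so had 18.8% of all 33469 promoters listed. The 10 were Epcam, Tjp3, Ocln, Cldn7, Cldn6, Cldn3, Jup, Dsp, Dsg2 and Dsc2. The motif was in the promoters of 4 of 4 detected desmosomal genes with a sequence, 3 of 4 of the group with Epcam, 3 of 5 claudins, and 0 of 5 cadherins, all of these 5 of type II. Among genes under 1 RPKM or listed at 0 it was in 5 of 10 connexins, 2 of 13 claudins, 0 of 8 cadherins and 0 of 4 desmosomal genes, and Gja1, the 1 detected connexin with a sequence, lacked it. The motif was chosen with the levels known, so these counts are a description. The following 5 promoters show its copies, from 1 in Epcam to 5 in Cldn7, each printed along the gene's strand with the E-boxes in capitals.
Epcam (chr6:12649629-12649928, minus strand, GRCr8): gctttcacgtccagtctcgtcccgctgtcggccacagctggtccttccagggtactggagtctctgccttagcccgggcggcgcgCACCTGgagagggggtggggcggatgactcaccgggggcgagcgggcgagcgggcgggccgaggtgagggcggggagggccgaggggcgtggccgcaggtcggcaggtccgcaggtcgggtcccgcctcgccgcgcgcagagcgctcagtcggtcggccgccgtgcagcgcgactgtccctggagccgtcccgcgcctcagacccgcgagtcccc
Tjp3 (chr7:9084174-9084473, plus strand, GRCr8): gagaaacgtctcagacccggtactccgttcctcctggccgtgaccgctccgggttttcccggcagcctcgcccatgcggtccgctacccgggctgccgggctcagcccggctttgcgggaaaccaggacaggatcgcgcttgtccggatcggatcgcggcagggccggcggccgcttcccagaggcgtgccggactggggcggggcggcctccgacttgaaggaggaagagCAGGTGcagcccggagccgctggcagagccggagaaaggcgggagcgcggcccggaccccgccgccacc
Cldn7 (chr10:55188420-55188719, plus strand, GRCr8): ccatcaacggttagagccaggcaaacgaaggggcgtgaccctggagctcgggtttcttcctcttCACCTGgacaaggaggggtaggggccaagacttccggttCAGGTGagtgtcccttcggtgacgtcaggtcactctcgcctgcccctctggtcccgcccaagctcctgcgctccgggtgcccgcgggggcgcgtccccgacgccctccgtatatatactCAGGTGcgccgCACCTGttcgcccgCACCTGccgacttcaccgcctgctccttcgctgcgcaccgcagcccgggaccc
Cldn6 (chr10:13215558-13215857, plus strand, GRCr8): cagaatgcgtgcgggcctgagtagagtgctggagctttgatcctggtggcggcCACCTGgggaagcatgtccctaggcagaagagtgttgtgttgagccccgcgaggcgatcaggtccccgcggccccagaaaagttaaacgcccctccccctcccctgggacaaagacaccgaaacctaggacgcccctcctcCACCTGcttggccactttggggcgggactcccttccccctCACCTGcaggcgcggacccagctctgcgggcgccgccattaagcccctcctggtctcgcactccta
Dsg2 (chr18:12121037-12121336, plus strand, GRCr8): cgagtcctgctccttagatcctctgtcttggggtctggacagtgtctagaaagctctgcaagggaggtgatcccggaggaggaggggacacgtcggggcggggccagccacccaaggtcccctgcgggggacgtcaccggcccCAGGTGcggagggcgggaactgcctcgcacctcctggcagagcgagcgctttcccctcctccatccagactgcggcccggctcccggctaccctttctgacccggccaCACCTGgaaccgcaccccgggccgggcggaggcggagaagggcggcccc

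CpG dinucleotides, which are dense in promoters of widely active genes, also differed with level. The median number in these 300 bases was 18 in the 19 promoters of detected junction genes, 11 in the 16 of those above 0 and under 1 RPKM, and 6 in the 19 of those listed at 0. Over all genes of the table the medians were 22 in detected genes, 10 between 0 and 1 RPKM, and 3 in genes listed at 0, so the order was that of the whole table. Exceptions ran both ways. Tjp1 and Cldn12 were at 59.7 and 31.5 RPKM with 2 and 1 CpG, while Cdh23 and Cdh22, with 43 and 40, were under 1 RPKM. The annotated start need not be the start used in these cells. The promoters of Dsp and Gja1 among detected genes, and of Cldn8 and Cdh12 among those listed at 0, are printed along the gene's strand with each CpG in capitals.
Dsp (chr17:26877072-26877371, minus strand, GRCr8): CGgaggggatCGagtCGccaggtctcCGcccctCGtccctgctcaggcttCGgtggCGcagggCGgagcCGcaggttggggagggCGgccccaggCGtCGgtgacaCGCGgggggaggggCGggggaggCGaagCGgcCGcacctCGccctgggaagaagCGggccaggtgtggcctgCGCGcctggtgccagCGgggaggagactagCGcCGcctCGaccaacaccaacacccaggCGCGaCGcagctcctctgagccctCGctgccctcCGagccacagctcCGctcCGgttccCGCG
Gja1 (chr20:36302314-36302613, plus strand, GRCr8): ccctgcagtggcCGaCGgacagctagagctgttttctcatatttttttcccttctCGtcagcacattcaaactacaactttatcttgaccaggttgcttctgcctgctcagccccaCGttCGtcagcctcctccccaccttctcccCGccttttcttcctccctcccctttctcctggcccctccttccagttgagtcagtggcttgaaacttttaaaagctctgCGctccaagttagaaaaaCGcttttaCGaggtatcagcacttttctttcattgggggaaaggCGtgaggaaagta
Cldn8 (chr11:41364281-41364580, minus strand, GRCr8): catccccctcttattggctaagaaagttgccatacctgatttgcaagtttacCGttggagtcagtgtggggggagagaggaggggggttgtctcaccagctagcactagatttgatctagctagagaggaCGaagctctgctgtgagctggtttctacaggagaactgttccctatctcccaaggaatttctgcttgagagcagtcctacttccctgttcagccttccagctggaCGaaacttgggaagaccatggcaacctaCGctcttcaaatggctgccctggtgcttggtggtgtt
Cdh12 (chr2:72886282-72886581, plus strand, GRCr8): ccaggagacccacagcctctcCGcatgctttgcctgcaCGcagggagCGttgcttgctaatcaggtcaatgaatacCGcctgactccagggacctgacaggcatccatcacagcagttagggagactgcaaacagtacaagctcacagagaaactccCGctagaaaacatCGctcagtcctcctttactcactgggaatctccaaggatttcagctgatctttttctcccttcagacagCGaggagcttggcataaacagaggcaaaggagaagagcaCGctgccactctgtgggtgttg

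**Figure D4:**
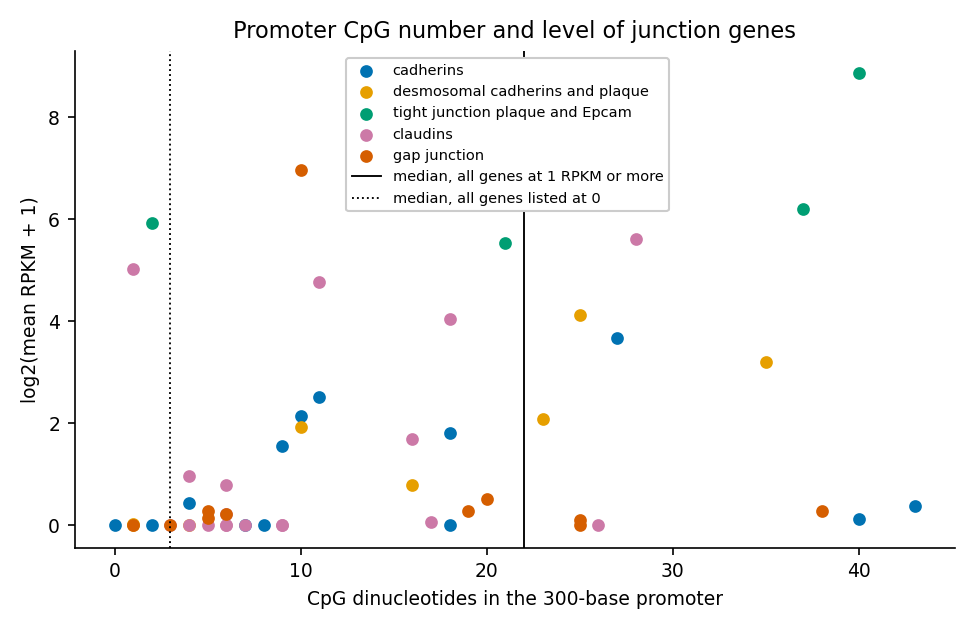
Number of CpG dinucleotides in the 300-base RefSeq promoter (x axis) and mean level as log2(RPKM + 1) (y axis) of 54 junction genes, coloured by class. The vertical lines are medians over all genes, 22 for those at 1 RPKM or more and 3 for those listed at 0, and Epcam is the point at 40 CpG at the top.

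Between the replicates, none of the 28 detected junction genes was more than 2-fold apart in RPKM + 1, against a background of 0.721% of detected genes. The median absolute log2 ratio was 0.17 in the 28 genes and 0.12 in all detected genes. At 1 to 10 RPKM it was 0.208 in junction genes and 0.220 in all genes. At 10 RPKM or more it was 0.137 and 0.0902. Replicate 2 was higher in 11 of the 28 and replicate 1 in 17. Gjb5 was farthest apart, with a log2 ratio of 0.49 towards replicate 2, followed by Cdh8 at 0.47. For 6 genes with at least 10 reads in all, where no longer multiple of the recovered model length fits in the locus, a 95% interval of the ratio could be drawn from the reads by the exact Clopper-Pearson method. It held 1 in all 6, among them Cldn3, Cldn4, Cldn5, Cldn12 and Gjb5. For Gjb5 the RPKM ratio of replicate 2 to replicate 1 was 1.43 with an interval of 0.925 to 2.24, and for Cldn12 it was 1.10 with an interval of 0.944 to 1.29. These intervals cover counting error only and compare the libraries, so differences of that size were not resolved at this depth.

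**Figure D5:**
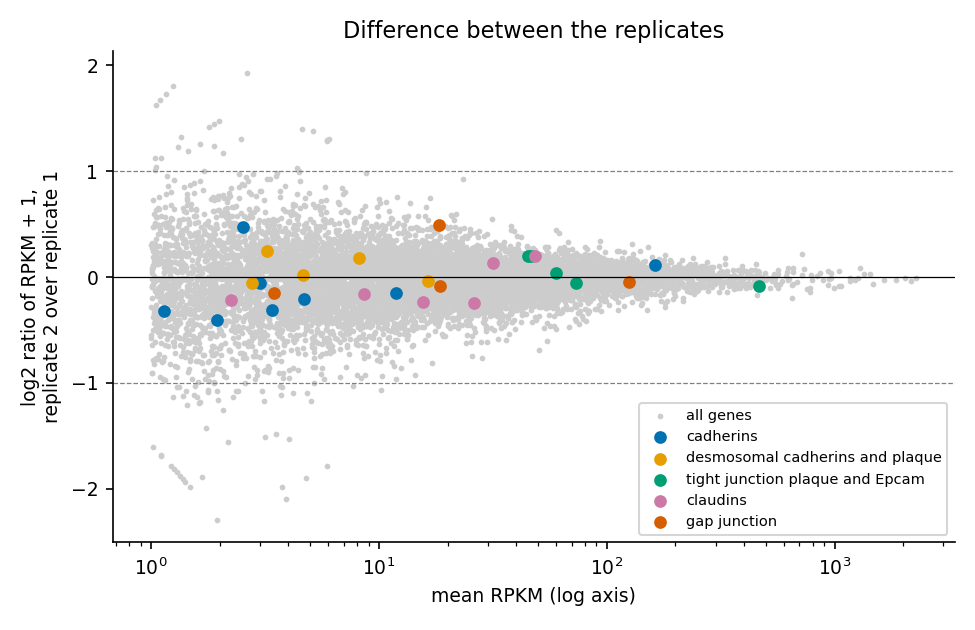
Log2 ratio of RPKM + 1, replicate 2 over replicate 1 (y axis), against mean RPKM on a log axis (x) for all detected genes (grey) and the 28 junction genes (coloured by class). All 28 lie within the dashed lines that mark a 2-fold difference.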

How the data were processed

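RNA was sequenced from 2 wild-type samples of the line as 50-bp paired-end reads. RPKM per gene row was deposited by the authors as 1 table with a column for each sample, whose names match the sample titles. The submitters' processing notes name the tools CASAVA 1.8 and TopHat 1.4.0 and the builds rn5 and Rnor_5.0. The counting tool, and what was done with reads of several genes, was not given in the sources used here.

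Rows were joined by Entrez identifier, and rows of 1 gene were summed. The means and SDs use n = 2, and differences use log2(RPKM + 1), which understates those of low genes. Library totals were those that made the largest number of values of loci under 6000 bp whole reads at the full locus length (437 of 2700 rows in replicate 1 and 431 of 2688 in replicate 2). Gene models were then sought from 60 to 20000 bp, within the locus, at a relative tolerance of 6e-07. Both values came out whole in 29 of 42 junction rows above 0 in each replicate (69.0%) and in 80.4% of 12970 rows of the table. The procedure was tested on simulated data in which every value was a whole number of reads at a known model length. That test does not cover loci longer than the gene model or shared reads, so it does not show that the recovered totals are right here. At high values a match can arise by chance, so reads are given for few genes.

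The members, gene lists and settings were chosen with earlier results of these data known. A few genes are not reported here, though counts and sums include them. The other members are named; of each other pathway list the 3 highest and the lowest genes are, and both lists of regulators in full. Markers and families named beyond that were chosen after their values were seen. The alternatives tried were other detection minimums and pseudocounts, each replicate alone, the highest row per gene, rescaling to a common sum, leaving out low members, and median-centring. The tools were numpy 2.4.6, pandas 2.3.3, Python 3.11.15 and matplotlib 3.10.9.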

Additional observations from a re-analysis of the deposited data

How the results depend on the processing

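Of 71 values recomputed under alternatives, 62 stayed close to the reported value, and no difference changed sign. Close meant within 1.5 times a reported count or median, or within 1 SD of a reported share or difference. With 2 replicates, either one alone always lies within 1 SD of their mean, so such shares and differences could not move. Taking the highest row per gene could change only results with Cdh13 or Gja7, the members with 2 rows. The count of 62 therefore includes values that could not move. Detected cadherins numbered 13 at a minimum of 0.3 RPKM and 5 at 3 RPKM, against 8 at 1 RPKM. The log2 difference of Cdh1 over Cdh2 was 7.07 with a pseudocount of 0.1 and 6.72 with libraries rescaled to a common sum, against 6.27, where Cdh2, at a mean of 1.14 RPKM, is close to the pseudocount of 1. The difference of Gja1 over Gja7 was 2.74 with a pseudocount of 0.1, 2.72 after rescaling and 2.84 with the highest row per gene, against 2.68. With no minimum, the median absolute log2 ratio between replicates was 0.0818 over all 78 genes, where those listed at 0 count as equal, and 2 genes, Cldn20 and Cldn15, were over 2-fold apart. Leaving out either replicate gave 28 to 29 detected junction genes and 7 to 8 cadherins, and 7 claudins either way. No paired analysis was possible because the series has 1 group. Depth limits genes under 1 RPKM, such as Gjd2, Gja4 and Cldn23, which rest on 1 to 3 reads.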

Other observations

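Relatives of the junction genes whose symbols fall outside the selection were looked at after the values were seen. Dsg1b, an epidermal desmoglein gene, was at 0.0483 and 0 RPKM in replicates 1 and 2. Cldnd1, which encodes a claudin-domain protein, was at 17.6 and 13.2 RPKM, and Cldnd2 at 0.408 and 0 RPKM. The cadherin-related genes Cdhr2, of intestinal microvilli, and Cdhr1, of photoreceptors, were at 0.326 and 0.319 RPKM and at 0.235 and 0.230 RPKM. Cdhr4 and the connexin gene Gje1 were listed at 0.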
